A study of Mus musculus with 12 samples.

Results

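The genes described here encode 10 inhibitory receptors and checkpoint molecules of T cells: Lair1, Pecam1, Cd5, Lag3, Pdcd1, Ctla4, Cd160, Btla, Tigit and Cd274. They were selected by name, and all 10 were among the 14323 gene symbols of the count table. RNA was sequenced by CEL-seq, which reads a tag near the 3′ end of each transcript, in naive CD8+ T cells taken from the spleens of 3 adult wild type mice by sorting; the methods name the strain C57BL/6N for mice of the study. The cells were cultured for 6 h on immobilized antibodies in 4 conditions, with 1 library per mouse and condition. Unstimulated isotype cells received isotype control antibody only, and unstimulated anti-LAIR-1 cells received anti-LAIR-1 (clone 2C7) and isotype control. CD3-stimulated cells received anti-CD3ε (clone 145-2C11) with either isotype control or anti-LAIR-1. Anti-CD3ε, anti-LAIR-1 and its isotype control were each coated at 2.5 µg/ml. An immobilized antibody stood in for the natural ligand of LAIR-1, and the description of these cultures names no costimulatory antibody.

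Many inhibitory receptors carry tyrosine motifs in their tails that recruit phosphatases and so dampen signals from the T cell receptor. LAIR-1 binds collagens and PECAM-1 binds other PECAM-1 molecules, and both recruit SHP phosphatases. PD-1 (Pdcd1), CTLA-4, LAG-3, TIGIT, BTLA and CD160 bind ligands on antigen-presenting or tissue cells, whereas PD-L1 (Cd274) is the ligand of PD-1. CD5 is a scavenger receptor family member that tunes the signal strength of the T cell receptor. Several of these genes are also induced by T cell receptor signalling itself. The comparisons below ask whether LAIR-1 ligation changed the RNA of the other inhibitory molecules, with and without a CD3 signal.

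Library totals ranged from 1781218 to 7725545 counts, and the median was lowest in unstimulated isotype cells (2304214) and highest in CD3-stimulated cells with anti-LAIR-1 (6204054). The summed level of 8 CD8 T cell markers lay between 2093 and 4167 CPM (counts scaled to library size, normalised by TMM over the 12 libraries). NK cell (2 of 6 listed genes in the table), erythroid (1 of 5), and CD4 and regulatory T cell markers (4 of 4) each summed to 4.73 CPM or less in any library. B cell markers (8 of 9) summed to 22.0 CPM or less. The NK cell and erythroid sums thus rest on few genes. Myeloid markers summed to between 29.2 and 64.0 CPM, and 1 of the 7 measured, Cst3, was over 10 CPM in any library. The mean share of mitochondrial counts was 2.88% and 3.55% in unstimulated cells with isotype and anti-LAIR-1, and 1.77% and 1.26% in the corresponding stimulated cells.

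Promoters are shown for the 3 members with the largest rise under anti-CD3, chosen by the size of that rise. Each run is the 250 bases before an annotated start in RefSeq (GRCm38.p6, the patch release of mm10), on the gene's own strand. Capitals mark the core letters of NFAT sites, GGAAA, or their reverse complement. NFAT is a transcription factor activated by calcium signals downstream of the T cell receptor.
Pdcd1, chr1:94052554-94052803, minus strand: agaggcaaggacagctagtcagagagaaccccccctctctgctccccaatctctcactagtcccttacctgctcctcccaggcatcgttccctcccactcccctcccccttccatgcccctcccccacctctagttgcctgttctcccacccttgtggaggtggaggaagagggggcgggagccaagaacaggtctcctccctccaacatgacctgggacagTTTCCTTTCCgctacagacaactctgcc
Cd160, first annotated start, chr3:96829352-96829601, minus strand: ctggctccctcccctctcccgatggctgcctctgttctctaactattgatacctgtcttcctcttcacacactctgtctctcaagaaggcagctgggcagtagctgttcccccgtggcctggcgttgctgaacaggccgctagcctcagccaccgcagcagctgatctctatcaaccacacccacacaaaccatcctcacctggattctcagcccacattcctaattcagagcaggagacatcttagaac
Cd160, downstream annotated start, chr3:96814522-96814771, minus strand: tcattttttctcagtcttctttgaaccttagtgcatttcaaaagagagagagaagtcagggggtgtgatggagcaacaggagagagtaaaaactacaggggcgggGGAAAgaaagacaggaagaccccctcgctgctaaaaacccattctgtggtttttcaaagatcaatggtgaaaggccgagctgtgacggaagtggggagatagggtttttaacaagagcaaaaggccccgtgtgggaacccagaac
Cd274, chr19:29367188-29367437, plus strand: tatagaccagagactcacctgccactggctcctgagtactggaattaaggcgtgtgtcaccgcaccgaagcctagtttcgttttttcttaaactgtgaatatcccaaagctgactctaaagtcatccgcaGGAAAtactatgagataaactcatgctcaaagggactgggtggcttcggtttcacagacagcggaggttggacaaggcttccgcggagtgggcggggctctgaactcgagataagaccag

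The Pdcd1 window held 2 adjacent NFAT cores, with first bases 28 and 23 before the start. The Cd274 window held 1, and the 2 Cd160 windows held 0 and 1. Windows were at hand for 8 of the 10 members, 9 windows in all, and 6 of the 9 held a core. The same letters, searched on both strands, were in 55.6% of 32817 mouse promoter windows of this length. The AP-1 letters TGANTCA were in none of the 9 windows and in 6.75% of all windows. Letters of an NF-kB site were in 2 of the 9, those of Cd5 and of the downstream Cd160 start, and in 45.8% of all windows. Btla and Cd5 held no NFAT core in this window. These matches describe letters in the windows and were not tested against the RNA.

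Lair1 itself was close to the limit of detection. The gene lies on chromosome 7 from 4003402 to 4063204 in mm10, minus strand. Its read counts in mice 1 to 3 were 6, 6 and 0 in unstimulated isotype cells and 2, 4 and 3 in unstimulated anti-LAIR-1 cells. With anti-CD3 they were 2, 7 and 6 with isotype and 2, 2 and 0 with anti-LAIR-1. A level of 3 counts, taken as the floor, corresponded to between 0.407 and 1.58 CPM depending on the library. The summed counts gave exact Poisson intervals of 0.563 to 1.66 CPM with anti-CD3 and isotype and 0.0579 to 0.544 CPM with anti-CD3 and anti-LAIR-1. These intervals cover counting error only. Lair1 passed the filter on low counts in no comparison. Without that filter its log2 fold change with anti-LAIR-1 under anti-CD3 was -2.15 (95% interval -4.18 to -0.11), and it did not pass (edgeR quasi-likelihood test, unadjusted p = 0.039, adjusted p = 0.298). The CPM of those groups did not overlap, as in 24.4% of the genes that passed the filter, a better counted set without Lair1. Lair1 was lower with anti-LAIR-1 in 3 of 3 mice, by differences of -0.55, -1.28 and -1.61 in log2 CPM. Mouse 1 had 2 counts in both arms, so that its difference came from scaling to library size. The counts with anti-CD3 and anti-LAIR-1 were all under the floor.

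Lag3 and Tigit were equally low. Lag3, which binds MHC class II, lies on chromosome 6 from 124904361 to 124911705, minus strand. It had counts of 1, 0 and 0 in unstimulated isotype cells and 2, 3 and 5 in unstimulated anti-LAIR-1 cells. With anti-CD3 it had 7, 5 and 0 with isotype and 4, 9 and 2 with anti-LAIR-1. Most of these counts lie around the floor, and the stimulated groups overlap. Without the filter its log2 fold change with anti-LAIR-1 was -0.15 (-1.76 to 1.46) under anti-CD3, and the interval spans changes of more than 2-fold in either direction. Without anti-CD3 the groups did not overlap, as in 9.86% of the genes that passed the filter, a better counted set without Lag3. There Lag3 was higher with anti-LAIR-1 in 3 of 3 mice, with an unfiltered log2 fold change of 2.43 (-0.55 to 5.40, adjusted p = 0.933, edgeR).

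Tigit, a receptor for CD155, lies on chromosome 16 from 43648867 to 43664146, minus strand. Its counts were 0, 1 and 3 in unstimulated isotype cells and 2, 0 and 3 in unstimulated anti-LAIR-1 cells. With anti-CD3 they were 2, 7 and 10 with isotype and 1, 10 and 3 with anti-LAIR-1. Without the filter its log2 fold change with anti-LAIR-1 under anti-CD3 was -0.69 (-2.11 to 0.72). No comparison of Lair1, Lag3 or Tigit passed at this depth, and neither a change nor its absence could be shown. In bulk RNA, fewer cells carrying a transcript and less of it per cell cannot be told apart.

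**Figure D1:**
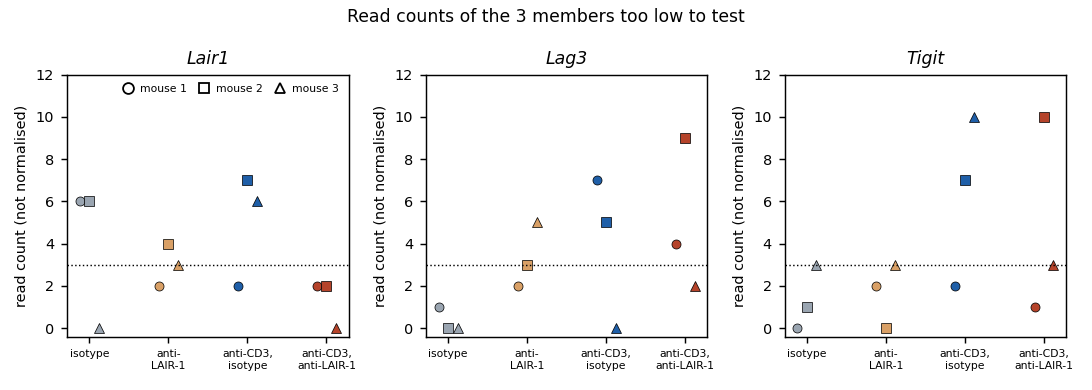
Read counts of Lair1, Lag3 and Tigit in the 12 libraries (y axis, counts as deposited; x axis, condition; symbols, mice). The dotted line marks 3 counts; no library exceeded 10 counts of these genes.

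Anti-CD3 alone changed 7 of the 7 members that passed the filter, 5 of them upwards and 2 downwards, in a comparison in which 71.3% of all tested genes passed, 35.3% upwards and 36.1% downwards (edgeR quasi-likelihood test, adjusted p under 0.05). Most genes moved in this comparison, so that the count is no result about the members. Pdcd1 and Ctla4 reached the test only through the group in which they were high, here and with anti-LAIR-1, so that their place in the count depends on the change itself. The other 3 members, Lair1, Lag3 and Tigit, were not tested. For all 7, the stimulated and unstimulated libraries did not overlap in CPM, as was the case for 73.4% of all genes tested. The CD8 T cell markers fell in 8 of 8 cases in the same comparison, and their part in the members' results was not tested. With anti-LAIR-1 present in both arms, 7 of 7 members again passed, again 5 upwards and 2 downwards, against 72.7% of all genes (36.4% and 36.3%), and 6 of the 7 did not overlap, against 74.7% of all genes. The median log2 fold change over the tested members was 1.48 with isotype and 1.55 with anti-LAIR-1, and over all genes tested -0.03 and -0.04.

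Pdcd1 rose from near the floor. It encodes PD-1, which recruits SHP-2 after binding PD-L1 or PD-L2, and lies on chromosome 1 from 94038305 to 94052553, minus strand. In unstimulated isotype cells it measured 0.664, 2.77 and 1.05 CPM in mice 1 to 3, and with anti-CD3 and isotype 101, 119 and 83.4 CPM. All 3 stimulated libraries were far above all unstimulated ones. Its log2 fold change was 5.98 ± 0.28 (SE), that is 63.3-fold (95% interval 42.2 to 94.8; adjusted p = 6.51e-15, edgeR). In the presence of anti-LAIR-1 it measured 1.38, 1.05 and 0.268 CPM without and 95.3, 91.1 and 81.8 CPM with anti-CD3, a log2 fold change of 6.59 ± 0.24. The unstimulated values rest on 1 to 7 reads per library, so that the denominator of these folds is poorly determined. Pdcd1 also reached these tests only through its stimulated libraries.

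Cd160 showed a rise of like size on tighter values. CD160 is a GPI-anchored receptor of the immunoglobulin superfamily that binds HVEM, and its gene lies on chromosome 3 from 96798763 to 96829351, minus strand. It measured 3.98, 4.76 and 4.21 CPM in unstimulated isotype cells and 280, 290 and 264 CPM with anti-CD3 and isotype. The rise was 60.9-fold (48.1 to 76.9; log2 fold change 5.93 ± 0.16; adjusted p = 6.92e-19). With anti-LAIR-1 the values were 4.13, 4.47 and 3.48 CPM without and 265, 302 and 270 CPM with anti-CD3, a log2 fold change of 6.08 ± 0.14. Pdzk1, a measured gene on the opposite strand, overlaps part of Cd160 but not its 3′ end.

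Cd274 rose 13.8-fold (10.6 to 17.9). PD-L1 is best known on tumour and myeloid cells, and activated T cells carry it as well. The gene lies on chromosome 19 from 29367455 to 29388095, plus strand. It measured 5.64, 6.74 and 5.26 CPM in unstimulated isotype cells and 87.3, 81.3 and 90.0 CPM with anti-CD3 and isotype (log2 fold change 3.78 ± 0.18; adjusted p = 1.15e-14). With anti-LAIR-1 it measured 7.17, 4.47 and 5.09 CPM without and 88.2, 88.8 and 85.9 CPM with anti-CD3 (log2 fold change 3.96 ± 0.16). Thus the receptor gene and the gene of its ligand were both low in unstimulated cells and both higher in every stimulated library.

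Btla and Cd5 were already well measured without stimulation and rose by smaller factors. BTLA, which like CD160 binds HVEM, is encoded on chromosome 16 from 45224315 to 45257670, plus strand. Btla measured 38.2, 39.2 and 32.6 CPM in unstimulated isotype cells and 112, 105 and 109 CPM with anti-CD3 and isotype, a rise of 2.78-fold (2.32 to 3.34; adjusted p = 3.17e-10). With anti-LAIR-1 it measured 34.7, 35.5 and 30.8 CPM without and 95.0, 113 and 90.7 CPM with anti-CD3, a rise of 2.92-fold (2.46 to 3.48). The stimulated libraries were above the unstimulated ones in all 3 mice under either second antibody.

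Cd5 lies on chromosome 19 from 10717116 to 10739002, minus strand. It measured 96.2, 96.7 and 96.7 CPM in unstimulated isotype cells and 228, 233 and 226 CPM with anti-CD3 and isotype. The rise was 2.25-fold (1.95 to 2.60; adjusted p = 3.14e-10). With anti-LAIR-1, Cd5 measured 108, 93.2 and 100 CPM without and 233, 223 and 222 CPM with anti-CD3, a rise of 2.23-fold (1.96 to 2.52). The 3 unstimulated isotype libraries were nearly alike, with an SD of 0.286 CPM.

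Pecam1 and Ctla4 fell. PECAM-1 (CD31) is an adhesion and inhibitory receptor of endothelium, platelets and leukocytes, naive T cells among them. Pecam1 lies on chromosome 11 from 106654217 to 106750628, minus strand. It measured 109, 131 and 154 CPM in unstimulated isotype cells and 10.8, 14.2 and 8.42 CPM with anti-CD3 and isotype. Its log2 fold change was -3.65 ± 0.18, and the stimulated level was 12.5-fold lower (9.74 to 16.1; adjusted p = 1.04e-14).

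Ctla4, a receptor that competes with CD28 for CD80 and CD86, lies on chromosome 1 from 60887000 to 60915832, plus strand. It had 13, 9 and 12 counts in unstimulated isotype cells (4.31, 3.57 and 6.31 CPM) and 8, 7 and 10 counts with anti-CD3 and isotype (2.46, 1.50 and 1.62 CPM). The log2 fold change was -1.42 ± 0.45 (adjusted p = 0.00727, edgeR). Ctla4 reached the edgeR tests of anti-CD3 only through its unstimulated libraries, so that their p-values are not independent of the fall. DESeq2 gave an adjusted p of 0.0643, and 0.142 with the mouse as a block, so that the call depends on the tool. With anti-LAIR-1, Ctla4 had 10, 20 and 33 counts without and 10, 17 and 5 counts with anti-CD3 (2.76, 5.26 and 8.84 CPM against 1.36, 2.89 and 1.06 CPM). Those groups overlapped, with a log2 fold change of -1.66 ± 0.45 (adjusted p = 0.00266), and without the library of mouse 3 from unstimulated anti-LAIR-1 cells the value was -1.18 and did not pass (adjusted p = 0.0522).

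**Figure D2:**
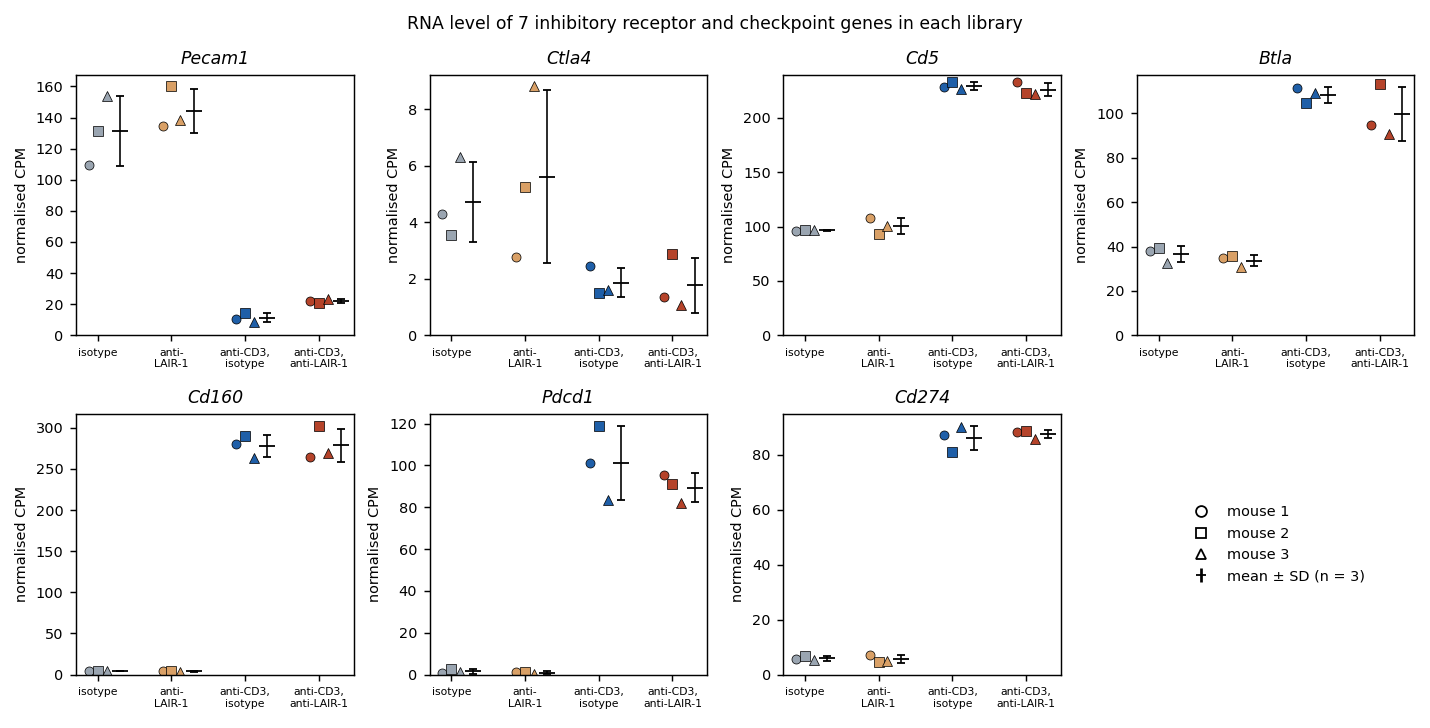
Normalised CPM (y axis, linear and starting at 0) of the 7 members that passed the filter, in the 4 conditions (x axis), with symbols for mice and bars for mean ± SD (n = 3). Cd160, Pdcd1, Cd274, Btla and Cd5 are higher in every stimulated library, and Pecam1 is lower in every stimulated library, at 20.9 to 23.1 CPM with anti-LAIR-1 and 8.42 to 14.2 CPM with isotype.

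In CD3-stimulated cells, anti-LAIR-1 changed 1 of the 6 members tested, Pecam1, against 5.76% of all genes tested (3.9% higher and 1.86% lower). The members were chosen with earlier results of these data known, so that the share called is a description only, here and in the interaction. The median log2 fold change was -0.00388 over the 6 members and 0.00474 over all genes. Pecam1 measured 10.8, 14.2 and 8.42 CPM with isotype (35, 66 and 52 counts) and 22.0, 20.9 and 23.1 CPM with anti-LAIR-1 (162, 123 and 109 counts). The 3 anti-LAIR-1 libraries were all above the 3 isotype libraries, a separation seen in 24.4% of all genes tested. The means were 11.1 ± 2.88 CPM and 22.0 ± 1.07 CPM (SD, n = 3). The log2 fold change was 1.00 ± 0.19 (SE), 2.00-fold with a 95% interval of 1.51 to 2.65 (adjusted p = 0.00424, edgeR), and it was 1.00, 0.55 and 1.40 within mice 1 to 3.

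Pecam1 remained far below its unstimulated level in both arms. With anti-CD3 and isotype it was at 9.85%, 10.8% and 5.47% of the unstimulated level of the same mouse. With anti-LAIR-1 in both arms it was at 16.4%, 13.1% and 16.7%. The log2 fold change with anti-CD3 was -2.73 ± 0.11 in the presence of anti-LAIR-1, 6.65-fold lower (5.65 to 7.82; adjusted p = 7.57e-14). Anti-LAIR-1 thus went with a smaller fall of Pecam1, and in every mouse the percentage was higher with anti-LAIR-1.

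The Pecam1 difference held when each library was left out in turn (log2 0.79 to 1.23, highest adjusted p = 0.0296). It did not pass in a single draw that thinned every library to the smallest total (log2 0.66, adjusted p = 0.218, edgeR). In 20 further draws, added after the data were seen, it passed in 13, with log2 values of 0.76 to 1.62, all above that of the single draw. The summed level of platelet and endothelial markers, of which 4 of 8 were in the table, was also higher with anti-LAIR-1, at very low levels. Their sum was 0.214 to 0.810 CPM with anti-CD3 and isotype, with 3 of the 4 at 0 in all 3 libraries, and 0.813 to 2.55 CPM with anti-CD3 and anti-LAIR-1, with 2 of the 4 at 0. The markers at 0 with isotype were Pf4, Ppbp and Cdh5, and with anti-LAIR-1 Pf4 and Cdh5. Without anti-CD3 the sum was 0.526 to 1.33 CPM with isotype and 2.14 to 5.26 CPM with anti-LAIR-1. Their part in the Pecam1 result was not tested.

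The other 5 members tested did not pass, and their intervals limit the size of any change. Cd5 was at 0.989 of its isotype level (0.893 to 1.09), with adjusted p = 0.937. Cd160 was at 1.01 (0.901 to 1.12) with adjusted p = 0.969, and Cd274 at 1.02 (0.899 to 1.16) with adjusted p = 0.908. For these 3 genes the intervals lay on both sides of 1.

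Btla was at 0.924 of its isotype level (0.806 to 1.06), with adjusted p = 0.572. Pdcd1 was at 0.893 (0.756 to 1.05), with adjusted p = 0.482, and its values were 101, 119 and 83.4 CPM with isotype against 95.3, 91.1 and 81.8 CPM with anti-LAIR-1. For both genes the estimate was below 1, as for Cd5, the interval lay on both sides of 1 and the groups overlapped. Within mice, Pdcd1 was lower with anti-LAIR-1 in 3 of 3, by differences of -0.09, -0.38 and -0.03 in log2 CPM. Ctla4, with 5 to 17 counts per library, did not pass the filter in this comparison. Without the filter its log2 fold change was -0.02 (-1.10 to 1.07), and the interval holds a 2-fold change in either direction.

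**Figure D3:**
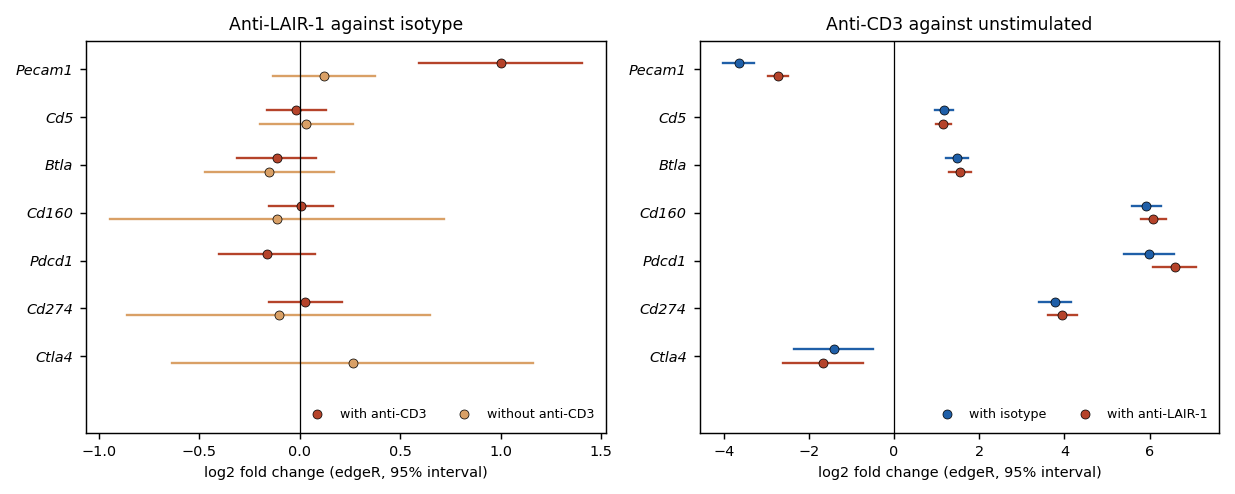
Log2 fold changes (x axis) of the tested members (y axis) with 95% intervals from edgeR. On the left, anti-LAIR-1 against isotype, where Pecam1 with anti-CD3 (1.00) is the only interval that lies off 0; on the right, anti-CD3 against unstimulated, with Pecam1 at -3.65 with isotype and -2.73 with anti-LAIR-1.

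Without anti-CD3, anti-LAIR-1 changed 0 of the 6 members tested, in a comparison in which 0% of 8770 genes passed, and the median log2 fold change was -0.0352 over these members and -0.00167 over all genes. In edgeR, 384 genes had an unadjusted p under 0.05, of which 0 were members, and DESeq2 also gave 0 adjusted calls, with 198 genes under 0.05 unadjusted. Pecam1 measured 109, 131 and 154 CPM with isotype and 134, 160 and 138 CPM with anti-LAIR-1, a log2 fold change of 0.12 (-0.13 to 0.38). The groups overlapped for all 6 members tested, whereas 9.86% of all genes tested did not overlap. For Cd5 the fold was 1.02 (0.873 to 1.20) and for Btla 0.901 (0.721 to 1.13).

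The remaining members were measured on few reads in unstimulated cells. For Cd160, at 8 to 17 counts, the fold with anti-LAIR-1 was 0.924 (0.520 to 1.64). For Cd274, at 10 to 26 counts, it was 0.930 (0.552 to 1.57). Ctla4, at 9 to 33 counts, had a fold of 1.20 (0.645 to 2.23), and the 3 intervals were wider than those of Cd5 and Btla. Pdcd1 had 2, 7 and 2 counts with isotype and 5, 4 and 1 with anti-LAIR-1 and did not pass the filter.

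The interaction, which asks whether the anti-LAIR-1 effect differed between stimulated and unstimulated cells, passed for 1 of 7 members, Pecam1, against 2.07% of all genes tested (1.82% upwards). Its log2 value was 0.89 ± 0.22 (95% interval 0.43 to 1.35; adjusted p = 0.0319, edgeR), with 0.70, 0.26 and 1.56 within mice 1 to 3. This call was not stable: it was lost on thinning (0.51, adjusted p = 0.565) and in 8 of the 12 fits that left out 1 library. The value was 0.87 (adjusted p = 0.0651) without mouse 2 and 0.76 (0.0758) without mouse 3 of unstimulated isotype cells. It was 0.84 (0.0816) without mouse 1 and 0.85 (0.0681) without mouse 3 of unstimulated anti-LAIR-1 cells.

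Among the stimulated libraries, the Pecam1 interaction was 0.87 (adjusted p = 0.0778) without mouse 1 and 0.68 (0.173) without mouse 3 of the isotype cells. It was 0.88 (0.0587) without mouse 1 and 0.85 (0.0877) without mouse 3 of the anti-LAIR-1 cells. The direction was positive in all 12 of these fits. For the other 6 members tested, the interaction ranged from -0.27 for Ctla4 to 0.56 for Pdcd1, with adjusted p of at least 0.816. The Pdcd1 interval (-0.84 to 1.96) and the Ctla4 interval (-1.68 to 1.15) were wide, whereas that of Cd5 ran from -0.30 to 0.21.

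Other genes around these molecules were taken from lists of inhibitory receptors and related molecules, their ligands, signal mediators, activating partners and transcription factors. The lists were chosen with earlier results of these data known, so that the shares called are a description only. Of 30 further inhibitory receptors and related molecules, 18 were in the table and 8 were tested under anti-CD3. With anti-LAIR-1, 3 of the 8 were higher and 0 lower, beside 3.9% and 1.86% of all genes tested, and the median log2 fold change was 0.23 beside 0.00 over all genes. Klrd1, the CD94 partner of NKG2 receptors, measured 80.5 ± 13.3 CPM with isotype and 144 ± 15.3 CPM with anti-LAIR-1 (SD, n = 3; log2 0.83, adjusted p = 0.000188). Lax1, an adaptor that limits antigen receptor signalling, was higher by 0.75 (adjusted p = 0.00148), and Nt5e, the CD73 enzyme that makes adenosine, by 0.67 (adjusted p = 0.00246).

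These 3 genes had fallen with anti-CD3 in the isotype libraries, Klrd1 by 2.54 on the log2 scale, Nt5e by 1.22 and Lax1 by 0.82. The comparisons share the anti-CD3 isotype libraries, so that both values of a gene are not independent. Pecam1 had the same order of levels (unstimulated highest, anti-CD3 with anti-LAIR-1 next, anti-CD3 with isotype lowest). The induced members Pdcd1, Cd160, Cd274, Btla and Cd5 did not show a called difference between the 2 stimulated groups. Of the 8 further genes tested, 5 fell with anti-CD3 and isotype, beside 36.1% of all genes. Cd96 and Slamf6 also had lower means there and were not among the 3 called with anti-LAIR-1. Cd96 measured 93.6 CPM in unstimulated isotype cells, and with anti-CD3 23.2 CPM with isotype and 29.6 CPM with anti-LAIR-1. For Slamf6 these means were 29.7, 18.6 and 17.9 CPM.

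Among ligands of inhibitory receptors, 12 of 26 were tested under anti-CD3, 3 were higher with anti-LAIR-1 and 0 lower, beside 3.9% higher over all genes (median log2 0.06 and 0.00). Selplg, which encodes PSGL-1, was at 50.6 ± 3.72 CPM with isotype and 96.0 ± 7.44 CPM with anti-LAIR-1 (log2 0.93, adjusted p = 3.25e-05). Lgals9, encoding galectin-9, was higher by 0.80 (adjusted p = 0.00145). Cd47, the "don't eat me" ligand of SIRPα, was higher by 0.59 (adjusted p = 0.0271). The ligands of PD-1 did not pass: Pdcd1lg2 had a log2 fold change of 0.11 (adjusted p = 0.580), beside 0.03 for Cd274.

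Transcripts of LAIR-1 ligand genes were few in these cells, and ligand protein was not measured. Of 14 collagen, complement C1q and related genes, 5 were in the table and 0 passed the filter in CD3-stimulated cells with or without anti-LAIR-1. Col23a1, a transmembrane collagen, was tested in unstimulated cells only among the anti-LAIR-1 comparisons, with 6 to 14 counts with isotype and 17 to 31 with anti-LAIR-1 (log2 0.81, adjusted p = 0.997). In the presence of anti-LAIR-1, Col23a1 had 17 to 31 counts without and 1 to 5 counts with anti-CD3, and it reached that test only through the unstimulated group.

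Of 35 signal mediators, 31 were tested under anti-CD3, and with anti-LAIR-1 2 were higher and 0 lower (median log2 0.06). That share is close to the 5.76% of all genes called, so that the count is no result about the mediators. Csk, the kinase that holds Lck inactive, was higher by 0.39 (adjusted p = 0.00809), and Lat, the adaptor downstream of ZAP-70, by 0.26 (adjusted p = 0.0275). The phosphatase genes did not pass: Ptpn6 (SHP-1) had a log2 fold change of 0.24 (adjusted p = 0.106), Ptpn11 (SHP-2) -0.18 (0.329) and Inpp5d (SHIP-1) 0.46 (0.246). Of 8 activating partners, 7 were tested and 2 were higher, beside 3.9% of all genes. Cd2 was higher by 0.57 (adjusted p = 0.000331) and Cd28, which shares CD80 and CD86 with CTLA-4, by 0.38 (adjusted p = 0.00634).

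Transcription factors reported to control checkpoint genes had a list median of 0.25 on the log2 scale, beside 0.00 over all genes, with 4 of 29 tested genes higher and 0 lower, beside 3.9% and 1.86% of all genes. Bcl6 was higher by 1.07 (adjusted p = 0.00654), Lef1 by 0.67 (0.000113), Tcf7 by 0.63 (0.00715) and Id3 by 0.42 (0.00358). Lef1 and Tcf7 are factors of naive and memory T cells, and Bcl6 is a repressor of effector differentiation. Without anti-CD3, 0 genes of any of these lists passed with anti-LAIR-1. Over the 8 CD8 T cell markers measured, 3 were also higher with anti-LAIR-1 under anti-CD3 (Cd3g, Cd3d and Cd3e), with summed levels of 2513 to 2880 CPM against 2093 to 2271 CPM with isotype. The part of this shift in the list results was not tested.

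**Figure D4:**
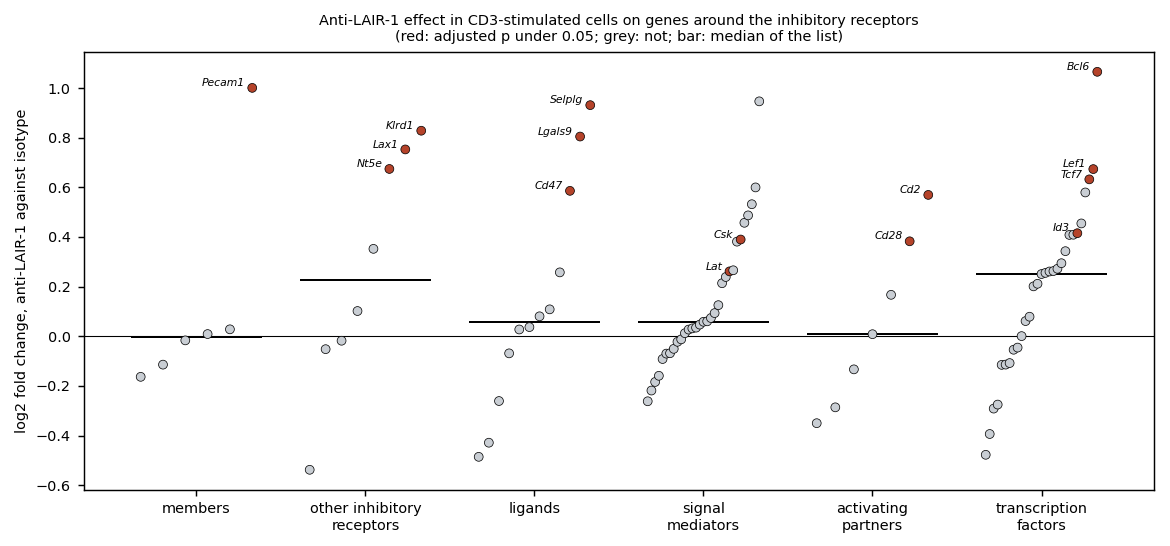
Log2 fold change with anti-LAIR-1 against isotype in CD3-stimulated cells (y axis) for each tested gene of 6 lists (x axis), with list medians as bars. Red points passed an adjusted p of 0.05 (edgeR); all of them lie above 0, and Pecam1 is the only red point among the members.

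For each of the 7 members that passed the filter over the 12 libraries, the genes with the most similar profile were those with the highest Pearson r of log2 CPM. The 12 points share conditions and mice, and most of the spread is the anti-CD3 difference, so that the values are a description only. Cd160 was most like Nr4a1, an immediate early gene of T cell receptor signalling (r = 0.998), followed by Dad1 and Mrps6. Cd5 was most like Xcl1 (r = 0.999), Morf4l2 and Ccl4, where Xcl1 and Ccl4 encode chemokines. Pdcd1 was nearest to Nudt21 (r = 0.996), Vma21 and Usp31, Cd274 to Mrps6 (r = 0.997), Kti12 and Psmb3, and Btla to Tomm5 (r = 0.997), Uck2 and Hnrpdl. Pecam1 was nearest to A630023P12Rik (r = 0.997), Arhgap9 and Rasgrp2. Ctla4 had lower values, with Txndc16 (r = 0.949), Sall2 and Ing2.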

How the data were processed

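CEL-seq libraries of 12 samples (3 mice in each of 4 conditions) were analysed. Per the methods and labels, the authors aligned reads with BWA to mouse mm10 transcripts and deposited raw read counts per gene symbol, with reads mapping equally well to several places discarded. Whether molecular identifiers were collapsed is not given in the sources used here. The 10 members and all gene lists were chosen with earlier results of these data known; some list genes are not reported here.

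Counts were tested with the quasi-likelihood F-test of edgeR 4.0.16 (R 4.3.3) after TMM normalisation and filterByExpr, with only the compared groups in a fit (all 12 libraries for the interaction), with p-values adjusted by Benjamini-Hochberg over every gene in the fit and a threshold of 0.05. Standard errors are the log2 fold change divided by the root of F. A prior count of 2 was used for log2 CPM. Named genes are the members, list genes passing with anti-LAIR-1 under anti-CD3 or in the interaction (up to 6 a list), and the 3 genes most like each member. Pdcd1lg2, Col23a1, Cd96, Slamf6, the phosphatase genes, Pdzk1 and single cell markers were named after their values were seen. Coordinates are from GENCODE M21 and promoters from RefSeq. Alternatives were DESeq2 1.42.0 with and without the mouse block, other normalisations and filters, all 12 libraries in 1 fit, thinning, and each library left out. The fits were tested on simulated counts with few changed genes, a setting unlike the anti-CD3 comparisons, in which most genes passed.

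Libraries with the same number came from the same mouse. Their deviations from group means correlated with a mean r of 0.0428 over 18 pairs (-0.0127 to 0.0903), beside -0.0214 for 36 pairs of different mice. Subtracting the group means ties the second mean to the first, so that it is no independent baseline. Groups of 3 are too small for an exact permutation test to pass 0.05, and none was used.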

Additional observations from a re-analysis of the deposited data

Results flagged for a closer look

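By the interaction test of edgeR over the 12 libraries, 11 of 108 tested genes passed (adjusted p under 0.05), beside 2.07% of all genes tested (1.82% upwards). A pass means that the anti-LAIR-1 effect was called different between stimulated and unstimulated cells. The 108 were members, genes of their lists and cell type markers. They were chosen with earlier results of these data known, so that the share is a description only. Among receptors and ligands, the log2 interaction was 0.89 for Pecam1 (adjusted p = 0.0319, a call lost on thinning and in 8 of 12 fits without 1 library), 0.90 for Klrd1 (0.000664), 0.78 for Lgals9 (0.0186) and 0.90 for Selplg (8.73e-05). For Csk, which restrains Lck, it was 0.52 (0.035), for the adhesion receptor Cd2 0.57 (0.012) and for the costimulatory receptor Cd28 0.46 (0.0362). Among the transcription factors it was 0.64 for Lef1 (0.00209) and 0.71 for Tcf7 (0.0191). Among CD8 T cell markers it was 0.58 for Cd3g (0.00933) and 0.50 for Cd3e (0.0227). In all 11 the interaction was positive, and of these calls only that of Pecam1 was refitted under other settings. With anti-CD3 and isotype, 10 of the 11 genes had fallen relative to unstimulated cells, beside 36.1% of all genes tested there. Cd28 had not changed detectably (-0.09, adjusted p = 0.398, edgeR). The interaction and this fall share the isotype libraries, so that the 2 values of a gene are not independent and the count is a description only.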

How the results depend on the processing

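Of 514 recomputed log2 fold changes of members, 484 kept their direction and call, 14 lost the call and 16 turned sign; 0 of those 16 passed the threshold. For Cd160 with anti-LAIR-1 under anti-CD3 the value was -0.000962 with DESeq2 and -0.00258 with DESeq2 and the mouse as replicate block. A single draw that thinned every library to the smallest total left 0 members called with anti-LAIR-1 under anti-CD3 and 0 in the interaction (Pecam1 0.66 and 0.51). Over 20 further draws, Pecam1 with anti-LAIR-1 under anti-CD3 had a median of 0.99 (median adjusted p = 0.0240, edgeR), with 13 of the 20 passing. Those values, 0.76 to 1.62, all lay above the 0.66 of the single draw. The median interaction of Pecam1 over 20 further draws was 0.89 (median adjusted p = 0.115, edgeR), with 4 of the 20 passing. These draws were chosen after seeing the data. Requiring 10 counts in every library left 4 members called, of 4 tested, with anti-CD3 and isotype.

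Leaving out 1 library at a time, the ranges of log2 values were, with anti-LAIR-1 under anti-CD3, -0.0552 to 0.0482 for Cd160, -0.0169 to 0.058 for Cd274 and 0.79 to 1.23 for Pecam1. Without anti-CD3 they were -0.0122 to 0.25 for Pecam1, -0.0186 to 0.0829 for Cd5, -0.32 to 0.0305 for Cd274 and -0.22 to 0.58 for Ctla4. For the interaction they were 0.68 to 1.11 for Pecam1 with 0 to 1 members called, -0.29 to 1.03 for Pdcd1, -0.0611 to 0.10 for Btla, -0.0955 to 0.00671 for Cd5 and -0.79 to 0.21 for Ctla4. The cause was not tested.

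With the mouse as replicate block, edgeR gave 1.01 for Pecam1 with anti-LAIR-1 under anti-CD3 (adjusted p = 0.00465) and 0.91 for its interaction (0.0207). DESeq2 did not call Ctla4 with anti-CD3 and isotype with or without the block, and the block changed no other member's call. Over all genes, the 507 calls with anti-LAIR-1 under anti-CD3 became 224 in DESeq2 with the block, 290 on thinning and 293 to 427 with 1 library left out, and the 191 interaction calls became 110 on thinning and 103 to 186 with 1 library left out. All 12 libraries in 1 fit moved the split of higher and lower calls from 343 and 164 to 391 and 99. Upper quartile scaling moved the median log2 fold change of all genes to -0.20 and -0.24 in the anti-CD3 comparisons, and all members kept their direction there.

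Depth limited Lair1, Lag3 and Tigit in every comparison, Pdcd1 in unstimulated cells and Ctla4 in stimulated cells. Every group holds 3 libraries from the same 3 mice.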
